A study of Drosophila melanogaster with 6 samples.

Results

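A set of 10 RNA-binding regulators, named by their FlyBase symbols, was looked up in the deposited gene table. They were the ELAV family members elav, fne and Rbp9, the CELF family members bru1, bru2 and bru3, and mbl, ps, Rbfox1 and sm. Of these 10 genes, 9 were matched by their identifiers among 14737 genes, and mbl was not analysed here. The 9 genes held 364 of the 128393 measured features, namely 180 exonic bins, 181 annotated splice junctions and 3 unannotated junctions. An exonic bin is a stretch of a gene between neighbouring exon edges of its annotated transcripts, and a junction count is the number of read pairs spliced across an intron.

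RNA came from lysates of whole Drosophila melanogaster embryos. The study compared OreR, a standard wild-type laboratory strain, with embryos carrying the caper allele caperCC01391, with 3 biological replicates of each genotype. Embryos of both genotypes were laid on yeasted apple juice plates and received no treatment. The zygosity of the allele, the strain background of the mutant and the age of the embryos were not given in the sources used here, so the allele, the strain and the timing of collection cannot be told apart in any difference below. In whole embryos, fewer cells of a type and less RNA per cell cannot be told apart either.

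The ELAV proteins are RNA-binding proteins of neurons that bind U-rich sequence in nascent transcripts. They steer alternative splicing and block the use of proximal cleavage sites, so that neuronal mRNAs keep long 3′ UTRs. CELF, Muscleblind, Nova and Fox proteins bind other short motifs beside alternative exons, and their positions relative to the exon influence whether it is included. In the fly several of them also act outside neurons, in muscle and in the female germline.

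Gene counts summed to between 34815930 and 42956396 per library. Of 10251 genes tested, 46.9% differed in level between the genotypes at an adjusted p of 0.05 by edgeR's quasi-likelihood test, with 26.4% higher and 20.6% lower in the mutant, and the median log2 fold change of all genes was -0.07. OreR replicate 2 stood apart from the other OreR libraries in maternal and germline markers, whose summed level was 1537.4 CPM (read counts scaled to library size) there against 2230.4 and 2284.2 CPM. Mutant replicate 1 held a larger share of its bin counts in the 3′ part of the gene than any other library in each of the 9 regulators, for example 81.9% for sm against 75.3% to 79.9% elsewhere. The 3′ part is the downstream set of bins when the ordered bins of a gene are split at their middle. The mean of this share was higher in the mutant than in OreR for each of the 9 regulators. For ps and sm every mutant library lay above every OreR library, and for the others the genotypes overlapped.

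Of the 9 regulators, 5 fell in the mutant, fne, bru2, bru3, ps and sm, and 0 rose. The median log2 fold change of the 9 genes was -0.39. The share of all tested genes called lower was 20.6%. The count of 5 became 3 without OreR replicate 3 or without any 1 mutant library, and without each of these the 3 genes were fne, bru3 and ps.

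In the ELAV family, elav, the pan-neuronal member used as a marker of neurons, was measured at 333, 426 and 398 CPM in OreR replicates 1 to 3 and at 302, 311 and 354 CPM in mutant replicates 1 to 3. The genotypes overlapped, since OreR replicate 1 lay below mutant replicate 3. Its log2 fold change was -0.26 ± 0.11 (SE, n = 3 per genotype), which missed the threshold (edgeR adjusted p = 0.092).

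The paralog fne, also expressed in neurons, was at 231, 303 and 272 CPM in OreR and 193, 184 and 179 CPM in the mutant. Every mutant library lay below every OreR library. fne was 1.45-fold lower in the mutant, a log2 fold change of -0.53 ± 0.11 (edgeR adjusted p = 0.0059).

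Rbp9, the family member known from both neurons and the ovary, was the least abundant regulator at 19.6, 19.7 and 15.0 CPM in OreR and 24.6, 25.4 and 20.1 CPM in the mutant. All 3 mutant libraries lay above all 3 OreR libraries, the opposite order to fne. The log2 fold change of 0.37 ± 0.15 did not pass the test (edgeR adjusted p = 0.081).

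In the CELF family, bru1, the repressor of oskar translation in the oocyte and a splicing regulator of flight muscle, was at 241, 127 and 273 CPM in OreR and 176, 229 and 204 CPM in the mutant. OreR replicate 2, the library with the lowest summed maternal markers, held the lowest value and OreR replicate 3 the highest, so the mutant values lay within the OreR range. The log2 fold change was -0.07 ± 0.26 (edgeR adjusted p = 0.83), and its sign turned when OreR replicate 1, OreR replicate 3 or mutant replicate 1 was left out.

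The paralog bru2 was at 92.2, 140 and 106 CPM in OreR and 87.0, 80.5 and 82.4 CPM in the mutant, with no overlap. It fell by 0.44 ± 0.15 on the log2 scale (edgeR adjusted p = 0.044). This call was lost without any 1 library other than OreR replicate 1, and without OreR replicate 2 the change was -0.25 (adjusted p = 0.06).

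The third paralog, bru3, was at 119, 156 and 124 CPM in OreR and 99.5, 96.9 and 87.3 CPM in the mutant. Each mutant library again lay below each OreR library, and the gene was 1.41-fold lower, a log2 fold change of -0.49 ± 0.12 (edgeR adjusted p = 0.013).

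The largest change among the 9 genes was that of ps (pasilla), the fly relative of the mammalian Nova splicing factors. Its level was 419, 434 and 348 CPM in OreR and 256, 264 and 261 CPM in the mutant. The mutant libraries lay close together and all below OreR. The gene was 1.54-fold lower, a log2 fold change of -0.62 ± 0.10 (edgeR adjusted p = 0.0019).

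Rbfox1, the fly member of the Fox family, was at 247, 291 and 256 CPM in OreR and 221, 226 and 238 CPM in the mutant. The groups did not overlap, yet the log2 fold change of -0.21 ± 0.09 missed the threshold (edgeR adjusted p = 0.078). For sm (smooth), a relative of the mammalian hnRNP L proteins, the values were 207, 282 and 223 CPM in OreR and 189, 174 and 179 CPM in the mutant. It fell by 0.39 ± 0.12 on the log2 scale (edgeR adjusted p = 0.031), a call lost without OreR replicate 3 or any 1 mutant library. Without OreR replicate 2 the change was -0.25 (adjusted p = 0.039).

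The genotypes did not overlap in CPM for 7 of the 9 genes, all but elav and bru1; among all genes tested, 60.4% did not overlap. The calls of fne, bru3 and ps were kept in all 13 alternative analyses. With upper quartile scaling, which moved the median of all genes by -0.16 and turned the split of called genes to 2269 higher and 3566 lower, elav and Rbfox1 also passed the threshold, at -0.42 and -0.37.

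**Figure D1:**
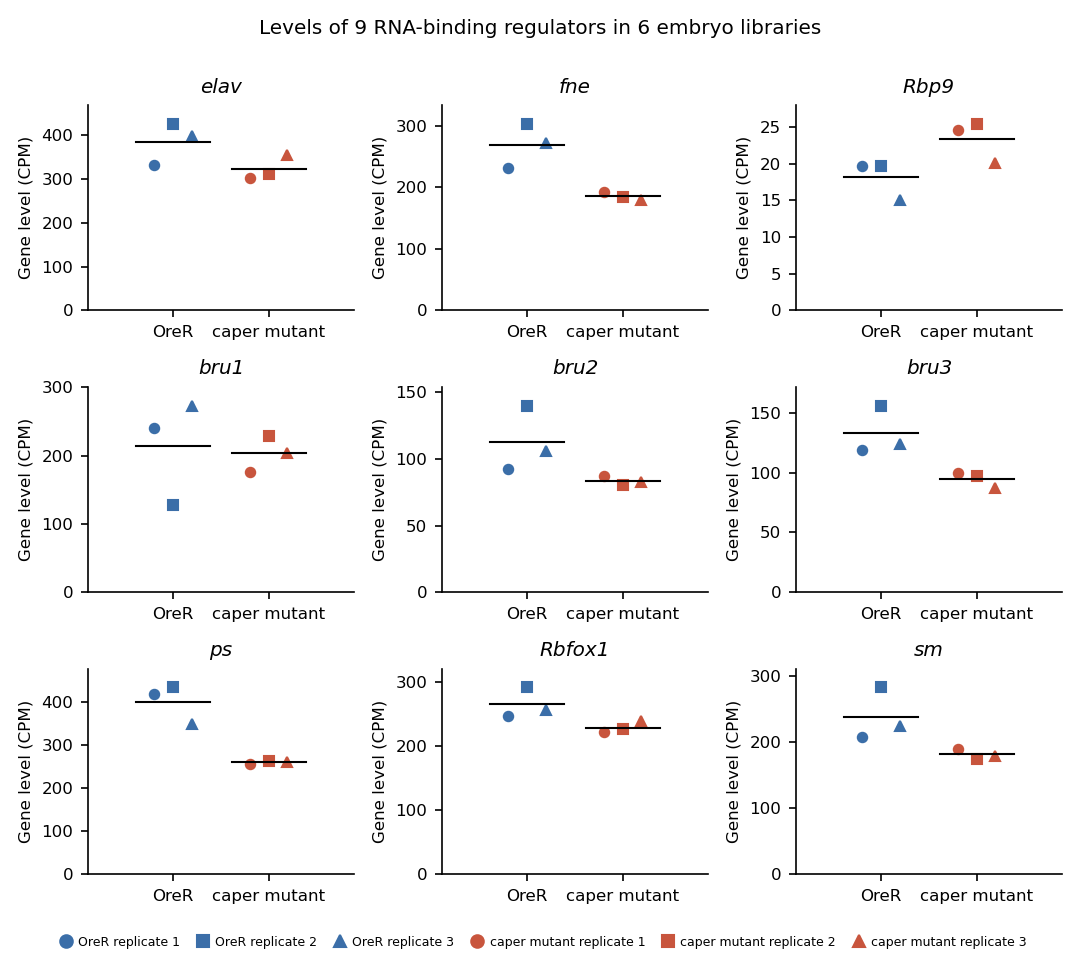
Gene level in CPM (vertical axes, starting at 0) of the 9 regulators in 3 OreR libraries (blue) and 3 caper mutant libraries (red), with marker shapes for replicates and lines for means. The mutant points of fne, bru2, bru3, ps, Rbfox1 and sm lie below all OreR points, those of Rbp9 lie above, and those of elav and bru1 overlap.

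**Figure D2:**
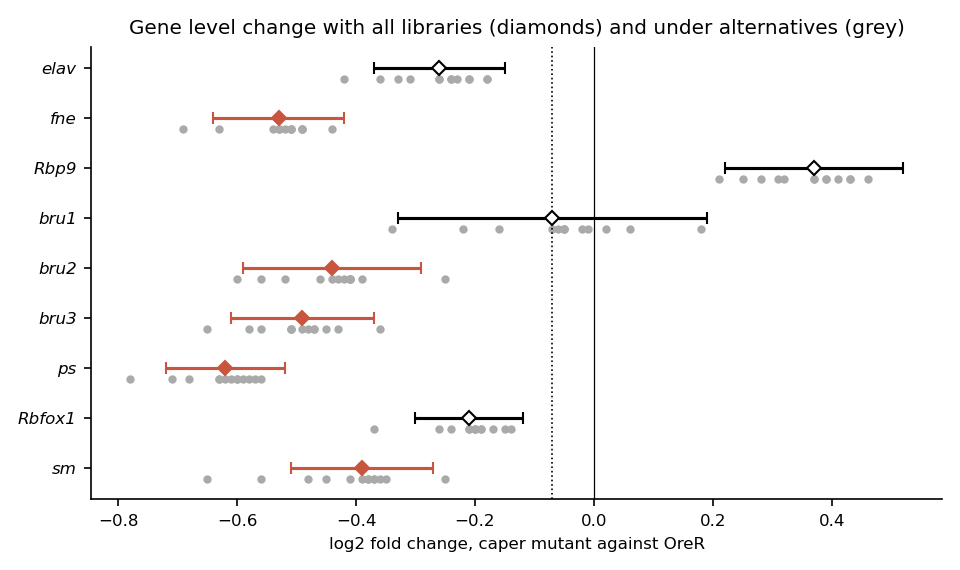
Log2 fold change of each regulator, caper mutant against OreR, with its standard error (diamonds, filled red where the adjusted p is below 0.05) and the values under 13 alternatives (grey); the dotted line is the median of all genes, -0.07. The values of bru1 fall on both sides of 0, and those of every other regulator lie on 1 side.

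Levels were then compared between the genes per kilobase of annotated exon (BDGP6 lengths). For fne and ps these lengths need not be those behind the deposited counts, since the table lists 18 bins of each gene and BDGP6 gives 19 and 21, so their places in the order are uncertain. In OreR the order was elav at 36 ± 4.46 CPM per kb (SD, n = 3), Rbfox1 at 31.9 ± 2.85, ps at 29.3 ± 3.36, fne at 28.1 ± 3.79 and bru1 at 27.4 ± 9.84. Lower levels were found for bru2 at 18.5 ± 3.99 CPM per kb, sm at 14.3 ± 2.36, bru3 at 10.4 ± 1.57 and Rbp9 at 2.25 ± 0.331. Neighbours in this order overlapped between libraries from elav down to sm. Only the steps from sm to bru3 and from bru3 to Rbp9 separated all 3 OreR libraries of each pair. Compared within each OreR library, elav also lay above Rbfox1 and bru2 above sm. In the mutant, elav was again at the top with 30.0 ± 2.59 CPM per kb, and ps stood at 19 ± 0.302, next to fne at 19.4 ± 0.777.

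The levels of markers for the tissues that hold these regulators are given beside them. For comparison, 26.4% of all genes tested rose and 20.6% fell. Of 23 neuron markers in the table, 13 fell and 3 rose (comt, Csp and unc-13), with a median log2 fold change of -0.59. Their summed level ranged from 1980.7 to 2388.0 CPM in OreR and from 1806.5 to 1850.4 CPM in the mutant. Appl, the neuronal amyloid precursor relative, fell from a mean of 180 CPM to 54.8 CPM, a log2 fold change of -1.71 ± 0.12 (edgeR adjusted p = 0.00018). In the list of 12 neuroblast markers 1 rose and 2 fell, with a median of 0.03.

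Of 9 glial markers 7 fell and 0 rose (median -0.36). Muscle markers fell in 9 of 12 and rose in 0 (median -0.75), with summed levels of 6397.9 to 9393.0 CPM in OreR and 3202.8 to 5728.2 CPM in the mutant. Of 13 cuticle genes of the late embryo, 8 fell and 0 rose (median -0.80). Maternal and germline markers moved the other way, with 6 of 13 higher and 1 lower (median 0.54), and summed levels of 1537.4 to 2284.2 CPM in OreR against 3307.4 to 4369.8 CPM in the mutant. No gene of these lists was at 0 in all libraries, and the part of tissue makeup or developmental age in the fall of the 5 regulators was not tested.

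**Figure D3:**
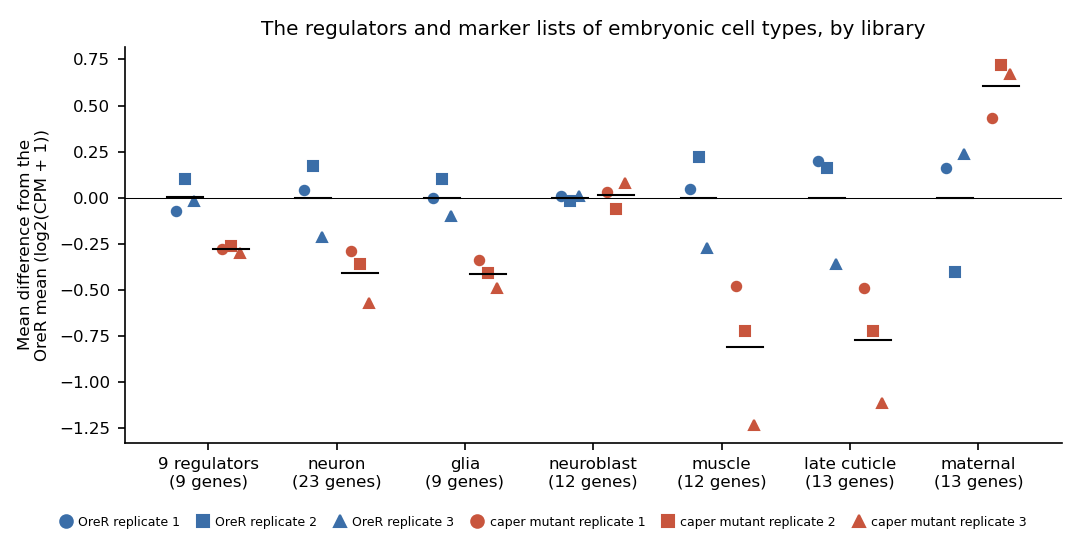
Mean difference from the OreR mean, in log2(CPM + 1), over the 9 regulators and 6 marker lists (horizontal axis, with the number of genes), 1 point per library and lines for genotype means. The regulators lie between -0.26 and -0.30 in the mutant libraries, the neuron, glia, muscle and cuticle lists also lie below OreR, and the maternal list lies above.

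Another 29 RNA-binding and tissue regulators were examined in the same fit, of which 14 rose and 4 fell, with a median of 0.31. Among all genes tested 26.4% rose and 20.6% fell. One listed gene, mod(mdg4), encodes chromatin proteins and does not belong there by function; without it 13 of 28 rose and 4 fell. The 4 with the smallest p were named. qkr54B, a KH-domain protein of the Quaking-related group, was at 59.6, 41.5 and 60.9 CPM in OreR and 121, 152 and 153 CPM in the mutant (log2 fold change 1.40 ± 0.17, edgeR adjusted p = 0.00081). Rox8, a relative of the mammalian TIA proteins, rose by 0.87 ± 0.10, and heph, the polypyrimidine tract binding protein, rose by 0.79 ± 0.10 on the log2 scale (edgeR adjusted p = 0.00081 and 0.0009). Each of these 3 genes had every mutant library above every OreR library.

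Syp (Syncrip), an RNA-binding protein of neurons and neuroblasts, went the other way, at 3.93, 5.19 and 3.36 CPM in OreR and 0.981, 1.28 and 1.31 CPM in the mutant. Its log2 fold change was -1.81 ± 0.24 (edgeR adjusted p = 0.00097). With upper quartile scaling the split of the 29 genes was 11 higher and 7 lower.

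Isoform use was described by the share of each bin or junction in its gene count. The test compared the change of each feature with that of its gene, and the shares themselves were not tested. Among the 281 testable features of the 9 genes, 4 were called (edgeR diffSpliceDGE, adjusted over all features), all lower in the mutant relative to their gene; among 88820 features of all genes 1.82% were called, 1.26% lower. At gene level 0 of the 9 regulators passed (edgeR Simes p, adjusted), against 6.04% of all 8510 genes. Unadjusted Simes p-values were below 0.05 for fne, Rbfox1 and sm (0.019, 0.029 and 0.012), and limma's diffSplice called 1 of the 9. Shares that did not overlap between genotypes were found for 71 features, 25.3% of those tested, against 21.7% over all genes. By gene this was 48.4% for ps and 47.7% for sm, 7.32% for bru3 and 0 of 9 features for elav. In ps and sm the share of bin counts in the 3′ part was also higher in every mutant library, and a link between these was not tested.

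In sm, both called features were junctions into the same alternative acceptor, at bin E011. This 180 nt coding bin adjoins E010 and extends it at its 5′ side in 4 of 21 annotated transcripts; bins are numbered along the chromosome, and sm lies on the minus strand, so that higher numbers are further upstream. Junction J044, from the donor of E019, had 38, 36 and 22 counts in OreR and 9, 9 and 6 counts in the mutant. Its share of the gene count was 0.472%, 0.296% and 0.267% in OreR against 0.114%, 0.150% and 0.0864% in the mutant, without overlap (usage log2 fold change -1.44, edgeR adjusted p = 0.019).

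Junction J043, from the donor of E018 to the same acceptor, had 38, 42 and 37 counts in OreR and 9, 13 and 12 in the mutant. Every mutant share lay below every OreR share, and the usage log2 fold change was -1.22 (edgeR adjusted p = 0.045). The bin E011 itself did not follow its junctions. Its share was 2.38%, 1.77% and 1.92% in OreR and 2.77%, 2.52% and 3.40% in the mutant, higher in every mutant library (edgeR adjusted p = 0.073). limma's diffSplice called this bin, with a usage log2 fold change of 0.75 (adjusted p = 0.0041), and called neither of its junctions.

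The remaining called features were single bins. In fne, E003 held 105, 117 and 67 counts in OreR and 37, 37 and 25 in the mutant, shares of 0.669% to 1.17% against 0.360% to 0.582% (usage log2 fold change -0.93, edgeR adjusted p = 0.041). The annotated place of this bin was not used here, because the table lists 18 bins of fne and BDGP6 gives 19. In Rbfox1, E002, a 494 nt bin of 2 of 9 transcripts, had 34, 45 and 20 counts in OreR and 11, 17 and 5 in the mutant, with overlapping shares (usage log2 fold change -1.28, edgeR adjusted p = 0.036). These 4 features hold few counts, and each call was lost on leaving out single libraries: 0 of the 4 remained called without OreR replicate 1, mutant replicate 1 or mutant replicate 3, 1 without OreR replicate 2 or mutant replicate 2, and 3 without OreR replicate 3. Other features of the regulators were called in their place in some of these analyses, 1 without mutant replicate 1 and 3 without mutant replicate 3.

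Choice among junctions that share a splice site was described, after these results were seen, for the 4 regulators whose bins and junctions could be placed in order on the BDGP6 annotation (elav, bru2, Rbfox1 and sm). A comparison of 3 libraries against 3 cannot give an exact permutation p below 0.1, so no test is given. Shares were taken at each end of a junction that had a competitor and at least 20 site counts in every library, so a junction can count at both ends, and the shares of a site sum to 100%. Of 81 such shares, 25 did not overlap between the genotypes, or 30.9%, against 28.6% of such shares in all genes with a matched annotation. By gene this was 13 of 27 shares in Rbfox1, 8 of 31 in sm, 3 of 18 in bru2 and 1 of 5 in elav. Where only a pair of junctions competes, their shares mirror each other, so these are not separate observations. The 81 shares belong to 67 junctions, of which 22 did not overlap at 1 or both ends. The share over all genes was not counted by junction.

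At the acceptor of sm E010, the junction from the 51 nt bin E015 took 17.6%, 13.9% and 13.2% of site counts in OreR and 6.71%, 9.09% and 8.38% in the mutant. The junction from E019, which skips E015, took 23.9%, 26.6% and 29.8% in OreR and 34.9%, 36.4% and 32.3% in the mutant. The bin E015 had a share of gene counts of 0.930% ± 0.105 in OreR and 0.476% ± 0.0738 in the mutant (SD, n = 3; adjusted p = 0.079). The bin and its junction were both lower in every mutant library, and neither passed the test.

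In Rbfox1, the donor of E017 is joined either to E018, a 72 nt coding bin, or past it to E019. The junction to E018 took 37.6%, 37.6% and 34.2% in OreR and 29.6%, 23.1% and 24.2% in the mutant, lower in every mutant library. At the donor of E013, the junction to E014 took 39.7%, 42.7% and 45.0% in OreR and 37.9%, 36.2% and 34.6% in the mutant. At the donor of E011, the junction to the 42 nt bin E012 rested on 14, 11 and 10 counts in OreR and 1, 2 and 7 in the mutant. At these 3 sites the share of the nearer bin was lower in every mutant library than in every OreR library, and none of the 3 bins was itself called. The donor of E006 went the other way: its junction to the nearer bin E007 took 13.7%, 15.1% and 13.6% in OreR and 15.3%, 17.9% and 18.5% in the mutant. At the acceptor of E019, the junction from E018 took 27.5%, 24.5% and 25.6% in OreR and 23.8%, 17.1% and 21.8% in the mutant. At the acceptor of E013, the junction from E012 took 5.88%, 4.66% and 8.16% in OreR and 1.79%, 1.26% and 4.04% in the mutant. Neither E012 junction was called in the main fit, while limma's diffSplice called both, J038 and J040 (adjusted p = 0.03 and 0.043). The other end of E014 did not separate the genotypes. At the acceptor of E016, the junction from E014 took 28.1%, 27.4% and 24.5% in OreR and 18.6%, 28.8% and 20.1% in the mutant.

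In bru2, the junction from E012 to E015 took 39.8%, 44.5% and 40.3% of site counts in OreR and 32.9%, 37.3% and 24% in the mutant. At the acceptor of the elav coding bin E003, the main junction, to E005, took 75.7%, 73.5% and 78.4% in OreR and 77.8%, 77.2% and 82.0% in the mutant, and the genotypes overlapped. The rarest junction of that site, to E004, did not overlap, with 12, 12 and 9 counts in OreR and 5, 4 and 6 in the mutant, or 3.18% to 4.29% against 2.08% to 2.99%.

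**Figure D4:**
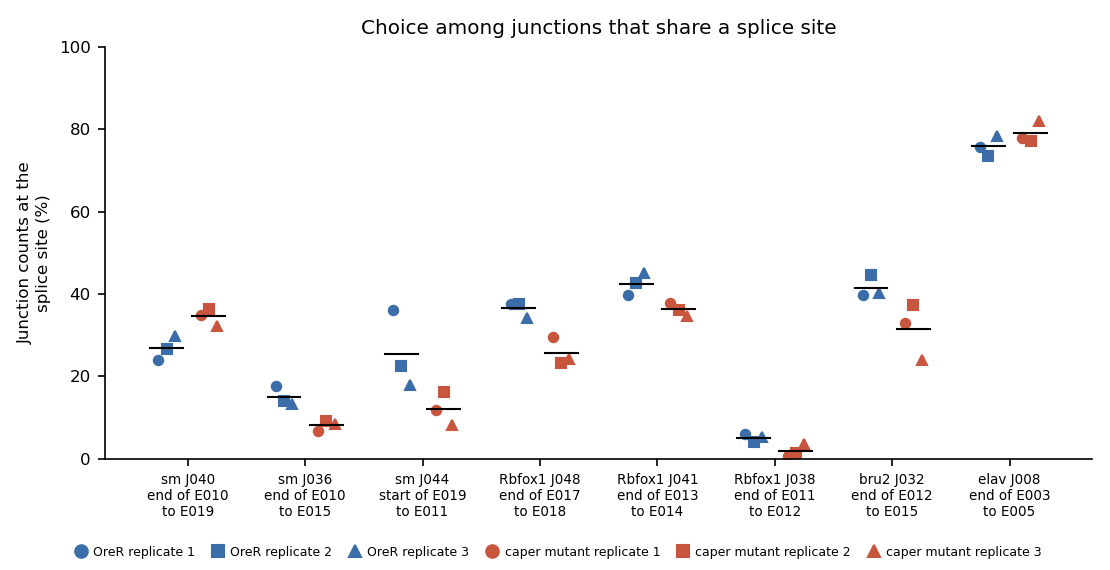
Share of junction counts at a splice site (vertical axis, percent, 0 to 100) taken by 1 junction, for 8 junctions of sm, Rbfox1, bru2 and elav, with 1 point per library and lines for genotype means; start and end follow the chromosome. OreR and mutant libraries do not overlap at the first 7, which were chosen after their values were seen, and overlap for the elav junction drawn.

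The isoforms of known targets of these proteins were read in the same usage fit. Of 10 ELAV and FNE target genes in the table, 3 were called at gene level, shep, pum and AGO1, and of 7 muscle genes spliced by Muscleblind or Bruno proteins 1, Tm1. Over all genes tested for usage 6.04% were called. shep encodes an RNA-binding protein with neuronal roles, and its bin E005 had shares of 1.28%, 1.32% and 1.44% in OreR and 0.257%, 0.0975% and 0.266% in the mutant (usage log2 fold change -2.62, edgeR adjusted p = 9.6e-15). In pum, the translational repressor Pumilio, bin E010 had a mean share of 2.92% ± 0.483 in OreR and 0.997% ± 0.0488 in the mutant (adjusted p = 5.2e-10). In Tm1, a tropomyosin gene, junction J047 had 0 counts in all OreR libraries and 12, 21 and 28 in the mutant (edgeR adjusted p = 5.5e-07). These mutant counts were only 0.0254%, 0.054% and 0.0662% of the gene count. Of 55 Tm1 features tested, 30 were called.

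ELAV and FNE are known to extend 3′ UTRs of genes of this list, so distal bins were gathered after the values were seen. Where the annotation could be matched, noncoding bins absent from some transcripts were taken from the outermost bin inward, up to the first gap. Among the regulators, 5 genes had 12 such bins and 0 were called. The outermost bin of bru3, E001, stands apart from its neighbour, so the bru3 bins were not covered. In bru1, E023 and E024 were taken, and the noncoding bins E019 to E021 that adjoin the coding bin E018 were not covered. For Rbp9 and bru1 only the number of bins matched the annotation, not that of junctions. The elav distal bin E001, 7615 nt and found in 1 of 4 transcripts, took 57.6%, 60.3% and 60.1% of the gene count in OreR and 67.0%, 63.6% and 59.2% in the mutant (edgeR adjusted p = 1.0). The long distal bin of sm, E002 with 6129 nt, took 50.5%, 51.1% and 51.1% in OreR and 57.0%, 54.1% and 50.4% in the mutant (edgeR adjusted p = 1.0). In both genes mutant replicates 1 and 2 were high and mutant replicate 3 was not.

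Among the targets, 5 genes had 11 such bins and 3 were called, all lower in the mutant. Over all features tested 1.82% were called, 1.26% lower. Shares did not overlap for 7 of the 11 bins, lower in the mutant for 6 and higher for AGO1 E003, and for 1 of the 12 bins of the regulators, sm E003; over all features 21.7% did not overlap. The pum bin E002, 2179 nt, took 15.8%, 25.3% and 18.6% in OreR and 12.1%, 8.47% and 7.66% in the mutant (usage log2 fold change -1.19, edgeR adjusted p = 7e-08). The distal bin E001 of AGO1, an Argonaute gene of the microRNA pathway, took 1.99%, 2.44% and 2.58% in OreR and 1.59%, 1.43% and 1.05% in the mutant (-0.80, edgeR adjusted p = 0.00034). The bin E002 of nej, which encodes the CBP acetyltransferase, took 12%, 18.6% and 14.6% in OreR and 10.6%, 8.83% and 7.41% in the mutant (-0.79, edgeR adjusted p = 0.011). The nej call was lost without OreR replicate 2 or 3 or mutant replicate 2 or 3.

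On the CPM scale, these distal bins overlapped between the genotypes while their genes rose. The pum bin was at 58.6, 86.1 and 64.2 CPM in OreR and 63.1, 56.7 and 52.7 CPM in the mutant, whereas the whole gene was at 370, 340 and 346 CPM and 522, 669 and 687 CPM (log2 fold change 0.83 ± 0.12, edgeR adjusted p = 0.0012). The nej bin was at 65.6, 85.5 and 70.5 CPM in OreR and 78.5, 80.7 and 83.3 CPM in the mutant, with the gene 0.90 ± 0.15 higher on the log2 scale (edgeR adjusted p = 0.0027). The lower shares stand beside larger gene totals, with levels of the distal bins that overlapped. The distal bins of shep were not called; its most distal bin took 12.7%, 16.2% and 13.4% in OreR and 18.7%, 14.5% and 11.8% in the mutant.

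**Figure D5:**
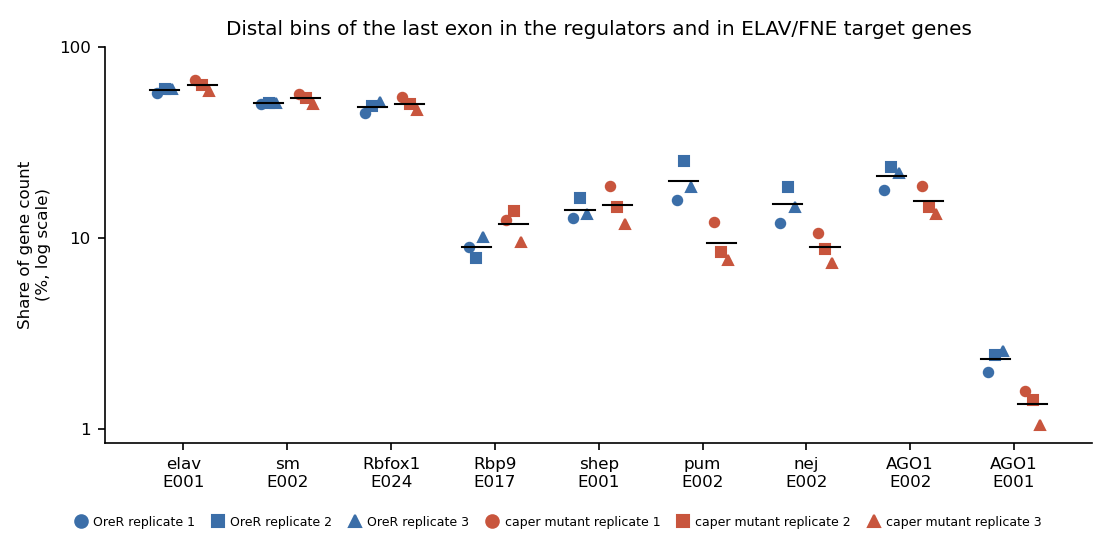
Share of the gene count (vertical axis, percent, log scale) of distal last-exon bins in elav, sm, Rbfox1 and Rbp9 and in the target genes shep, pum, nej and AGO1, with 1 point per library and lines for genotype means. Of the 9 bins drawn, mutant points lie below all OreR points for pum E002, nej E002 and AGO1 E001 and overlap with OreR for the other bins drawn.

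In gene level, 26.4% of all genes tested rose and 20.6% fell. Of the 10 ELAV and FNE targets 5 rose and 0 fell (median 0.13), and of the 7 muscle genes 3 fell and 0 rose (median -0.76). The muscle myosin gene Mhc, at 2140.1, 2390.0 and 1524.3 CPM in OreR and 1169.5, 1064.9 and 664 CPM in the mutant, had the smallest p of that list (log2 fold change -1.06 ± 0.24, edgeR adjusted p = 0.0094). Of 4 germline genes listed for their link to Bru1, grk and CycA rose, by 0.59 ± 0.11 and 0.64 ± 0.18 on the log2 scale (edgeR adjusted p = 0.0042 and 0.022). The others, osk and Gld2, had values of -0.26 and 0.09 that did not pass. These lists share genes with those above, so they are not separate observations. The muscle genes that fell, up, Mhc and sls, were also muscle markers. The targets pum, brat and shep were also among the other RNA-binding regulators, and osk and grk among the maternal markers. The neuroblast marker that rose was brat again. Of the other muscle genes, Tm2 was also a muscle marker and how was also among the other RNA-binding regulators.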

How the data were processed

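RNA-seq of 3 OreR and 3 caper mutant embryo samples was used. Read pairs from a stranded kit were sequenced in a single lane, per the labels' protocols. GSNAP, SAMtools and the BDGP5 build are listed per the submitters' processing notes, and the mouse build mm10 is named beside them. The table itself is named for JunctionSeq. The program that counted the reads and its strand setting are not stated in those sources. Raw counts per exonic bin and junction, counts for the remainder of each gene, and a normalised signal were deposited. That deposited signal is the count divided by a size factor, and it was used only to recover the factors (0.875 to 1.123). The gene count was the smallest sum of feature and remainder; the sum differed between features in 48 genes.

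Levels were compared by the quasi-likelihood test of edgeR 4.0.16 (R 4.3.3; TMM scaling, low counts removed by filterByExpr, genotype the sole term), and usage with diffSpliceDGE on bins and junctions together. P-values were adjusted by Benjamini-Hochberg over all genes or features at 0.05. CPM used TMM library sizes. The ± on fold changes is a standard error. Limma 3.58.1 and DESeq2 1.42.0 gave alternatives. The main edgeR fits of level and usage were tested on simulated counts, and the other steps were not.

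The table gives no positions. Bins and junctions were matched by order to flattened BDGP6 gene models where their numbers were equal (10114 of 14100 named genes), and a bin count was at least that of its junction in 99.4% of flank checks, against 92.6% in reverse order. Bin lengths and distal bins needed only an equal number of bins. This was the case for Rbp9, bru1 and bru3, whose junction numbers differed and whose bins had no flank check. Lengths are therefore BDGP6 lengths, and no coordinates are printed. caper and mbl were not analysed here. Members and gene lists were chosen with earlier results of these data known. All 9 members were named; of called features at most 4 per member, with features sharing a splice site, and of the other lists the 4 genes with the smallest p. Marker genes, nej, the distal bins and the splice sites named beyond this were chosen after their values were seen.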

Additional observations from a re-analysis of the deposited data

How the results depend on the processing

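The count of changed regulators, 5, was 3 with no filter on low counts, 4 with DESeq2 size factors and 7 with upper quartile scaling. With the DESeq2 Wald test it was 6, of which 5 were lower and Rbp9 was higher (0.39, adjusted p = 0.045). The count ranged from 3 to 6 when single libraries were left out. bru1 changed sign, to 0.02 without OreR replicate 1, 0.18 without OreR replicate 3 and 0.06 without mutant replicate 1, over a range of -0.34 to 0.18 with 1 library left out. All genes called in level, 4811, ranged from 3169 (without mutant replicate 2) to 4376 with 1 library left out, and the other RNA-binding regulators from 12 to 19. Regulator genes called in usage, 0, became 1 with limma's diffSplice. Regulator features, 4, became 1 with bins only and 0 with junctions only, where fewer features were tested, and ranged from 0 to 3 with 1 library left out; limma's 4 shared only Rbfox1 E002 with them. All called features, 1618, became 875 with bins only, 666 with junctions only and 2460 with limma, and ranged from 967 to 1517 with 1 library left out. Target genes, 4, ranged from 3 to 6 over all alternatives. The cause of these shifts was not tested.

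The labels do not say whether same-numbered libraries were paired, and the main fits left the replicate number out. Deviations of same-numbered libraries from their genotype means correlated at 0.09, -0.01 and 0.60 for replicates 1 to 3, which does not settle the question. With the replicate number as a block, 6 regulators changed, Rbp9 among them (0.37, adjusted p = 0.041), 4 regulator features were called, and nej E002 lost its call (-0.77, adjusted p = 0.11). Low junction counts limit what the usage comparisons can show.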

Other observations

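Unannotated junctions were sparse in the 9 regulators. The bru3 junction N056 summed to 26 counts in OreR and 12 in the mutant, the Rbfox1 junction N053 had 28 and 17, and the sm junction N063 had 21 and 16. In bru1, the 11 nt noncoding bin E019, found in 6 of 11 transcripts, held 3.46%, 3.61% and 3.64% of the gene count in OreR and 5.71%, 5.40% and 5.16% in the mutant. These groups were separated by several times their spread, yet the usage test did not call the bin (edgeR adjusted p = 1.0). The bin was singled out after its values were seen, and it was not among the distal bins gathered above. Its length and transcripts rest on an equal number of bins alone, since 22 junctions of bru1 were deposited and BDGP6 gives 23.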
